A study of Homo sapiens with 12 samples.

Results

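SU-DHL6 is an established human line of diffuse large B-cell lymphoma, labelled GCB for germinal centre B-cell, and its response to selinexor was measured by RNA sequencing over all genes. The libraries were those whose titles and count columns name SU-DHL6, 3 untreated and 3 selinexor-treated, which makes 6 of the 12 libraries of the study. The other 6 come from OCI-LY3, a line labelled ABC for activated B-cell, and they enter here only through the shared estimate of spread and where a value is set beside them. All cells carry the genotype label WT, the controls were grown without the drug for the same durations, and each line stands for 1 donor's tumour. Doses of 300 and 100 nM and exposures of 24 and 48 h are mentioned for the drug, but which library received which is not recorded, so no value here belongs to a dose or an exposure. The design text speaks of biological triplicates and leaves the origin of the cultures unsaid, so the p-values below measure the spread between these libraries, which may be technical.

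Selinexor binds XPO1, the receptor that carries proteins with a leucine-rich export signal, and several kinds of RNA with their adaptors, out of the nucleus. Germinal centre B cells divide fast, edit their immunoglobulin genes and are held in that state by a network of transcription and chromatin factors, among them BCL6 and the Polycomb methyltransferase EZH2. Lymphomas that arise from them keep much of this program, together with the high protein synthesis and biosynthetic metabolism that rapid division needs.

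The 6 libraries held between 14210200 and 16405842 counts, and replicates correlated at 0.981 to 0.986 over log2 CPM (a gene's counts relative to the library total, here scaled with TMM factors, which assume that most genes do not change). Treated libraries showed a count for 23687 to 24371 genes, and untreated ones for 21388 to 22710. The first principal component (63.7% of the variance) separated treatment. The first untreated library stood apart on the second component, which held 12% of the variance: it scored 46.6 where the other untreated libraries scored -18.1 and -20.6. All 10 B-cell markers and all 15 germinal centre B-cell markers passed the filter on low counts. Marker sums in this paragraph are CPM by total counts, without TMM factors, which were higher in treated than in untreated libraries. On this scale B-cell markers summed to 4129 to 4688 CPM untreated and 4175 to 4294 CPM treated. T-cell markers summed to 34.9 to 38.0 CPM untreated and 22.5 to 25.8 CPM treated, with CD2, CD3G, CD4 and CD7 at 0 in all 6 libraries. Of the 5 that passed the filter (CD3E, CD5, CD8A, CD247 and TRAC), 3 were called lower and 1 higher in the test given below. In such bulk libraries, fewer cells of a kind and less RNA per cell cannot be told apart. Markers of myeloid, erythroid, fibroblast and epithelial cells summed to at most 0.856 CPM in any library, and HBB, COL3A1, LYZ, MPO and EPCAM had no count in all 6. XPO1 itself, whose exons overlap those of another gene, was at 179, 136 and 143 CPM in the untreated libraries and at 434, 579 and 547 CPM in the treated ones.

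Selinexor changed the level of 43.2% of the genes that could be tested, in both directions. With edgeR's quasi-likelihood test, 3365 of 16474 genes were called higher (20.4%) and 3758 lower (22.8%) at a Benjamini-Hochberg adjusted p under 0.05. A change of at least 2-fold was called higher for 1184 genes (7.19%) and lower for 1449 (8.8%). The balance of directions rests on the scaling: the TMM factors were 0.974 to 1.039 in untreated and 1.167 to 1.233 in treated libraries, and scaling by total counts instead gave 5451 higher (33.1%) and 2367 lower (14.4%) and moved the median log2 fold change of all genes from 0.00 to 0.27. "Rose" and "fell" below are used of genes called under TMM scaling, and a list's counts are given against these shares of all genes. Of 12705 protein-coding genes tested, 20.7% were called higher and 25.8% lower. In the most abundant of 5 equal bins of them, 19.2% were called higher and 38.2% lower. The part of abundance in a list's counts was not tested.

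**Figure D1:**
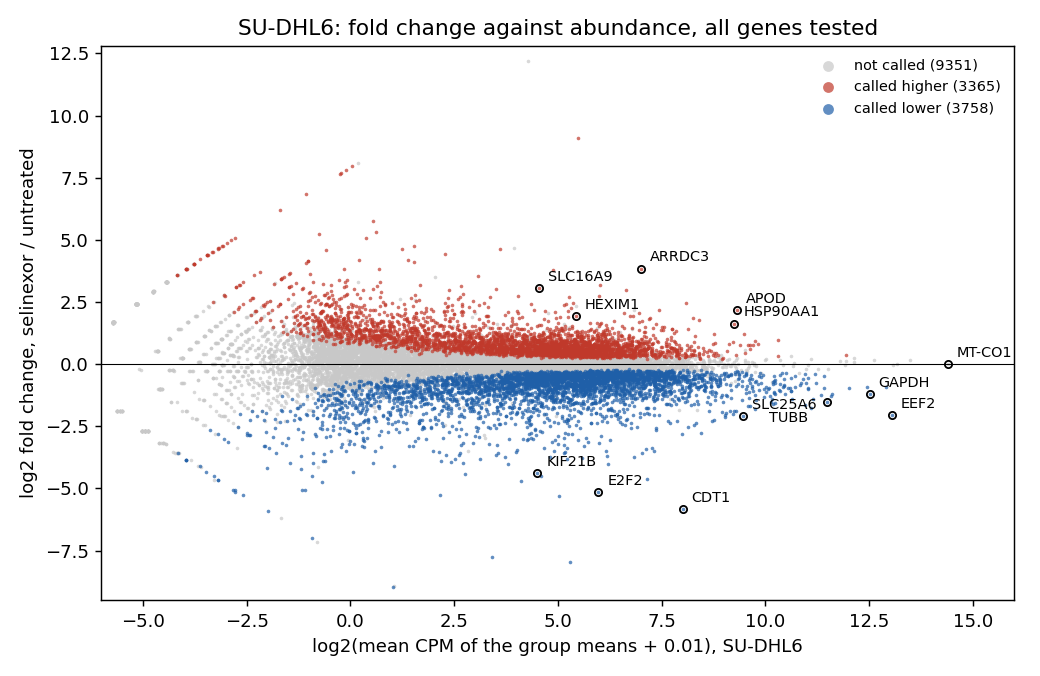
Each point is 1 of 16474 genes tested in SU-DHL6: the x axis is log2 of the mean CPM over both groups plus 0.01, and the y axis is the fitted log2 fold change of selinexor against untreated libraries, with called genes in red (3365 higher) and blue (3758 lower). The falls of CDT1 and E2F2 reach beyond -5, and the most abundant genes to the right, EEF2, GAPDH and TUBB among them, lie mostly below 0 while MT-CO1 lies at it.

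Genes rich in A and T were more often higher and genes rich in G and C more often lower. With protein-coding genes divided into 5 equal bins of exonic GC content, 35.2% were called higher and 12.4% lower in the lowest bin (31.3 to 40.9%), whereas in the highest bin (58.4 to 74.5%) 10.8% were higher and 33.9% lower. GC content here is that of each gene's longest annotated transcript. Its mean over genes, weighted by their counts, was 49.7 to 50.7% in untreated and 48.9 to 49.3% in treated libraries. The GC content of the reads themselves was not measured. With an offset per library fitted for GC content and exonic length, an alternative chosen after seeing the data, the trend was removed by construction, and 3967 genes were called higher and 3599 lower. The part of GC content in the results below was not tested beyond this, and the value with these offsets is given wherever it moves a named change by over 1.5 times.

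**Figure D2:**
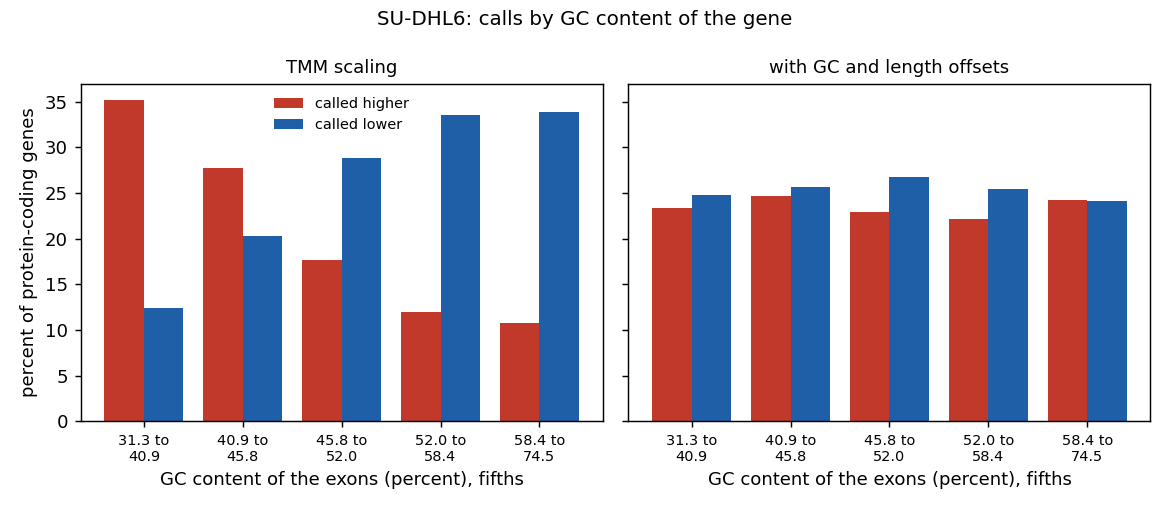
Bars give the percent of protein-coding genes called higher (red) or lower (blue) in SU-DHL6 for 5 equal bins of genes by exonic GC content (x axis, percent), with TMM scaling on the left and with GC and length offsets on the right. On the left the share of higher calls drops from 35.2% to 10.8% from the lowest to the highest bin, and on the right the bins differ by less.

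Among protein-coding genes at 3 or more in mean log2 CPM, without overlap between the groups and with at most a 2-fold range within each, the largest rise was that of ARRDC3, an alpha-arrestin that brings ubiquitin ligases to membrane receptors. ARRDC3 (ENSG00000113369, chromosome 5, 91368724 to 91383359 on GRCh38) was at 21.4, 14.5 and 14.5 CPM untreated and at 227, 258 and 235 CPM treated (log2 fold change 3.84 ± 0.15, SE). NDFIP1, a membrane adaptor of the same NEDD4-type ligases, went from 10.7, 13.4 and 14.4 to 69.6, 67.6 and 71.6 CPM (2.44 ± 0.11). In both genes every treated library lay above every untreated one. Over all genes tested, the groups did not overlap, in one direction or the other, in 51.1%. Transporters of the monocarboxylate family were also near the top: SLC16A9, a carnitine transporter, went from 5.04 ± 1.35 to 41.8 ± 2.72 CPM (SD, n = 3; log2 fold change 3.05 ± 0.16) and SLC16A14, an orphan member, from 10.1 ± 1.00 to 66.6 ± 2.22 CPM (2.72 ± 0.14). APOD, a secreted lipid-binding protein, went from 203, 254 and 234 to 1042, 1081 and 1015 CPM (2.18 ± 0.11). Other leading rises were those of TRIM22 (2.47 ± 0.12), an interferon-inducible ubiquitin ligase, HSPA4L (2.40 ± 0.16), a relative of HSP110, AKAP9 (2.26 ± 0.23), a scaffold of protein kinase A at the Golgi and centrosome, ZMAT1 (2.14 ± 0.23), PPDPF (2.08 ± 0.26) and the actin-severing protein GSN (2.05 ± 0.12). The histone gene HIST1H2BK (2.13 ± 0.10) and the zinc finger genes ZNF441 (2.73 ± 0.26), ZNF844 (2.13 ± 0.26) and ZNF44 (2.11 ± 0.18) complete the 15 largest, and the next gene in order was HSP90B1 at 2.04. ARRDC3, HSPA4L, ZNF44 and HSP90B1 share exon sequence with another gene, HIST1H2BK has near-identical copies, and how such reads were counted is not stated.

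By the same criteria, the 15 largest falls were mostly those of replication and S-phase genes. CDT1 (ENSG00000167513, chromosome 16, 88803213 to 88809258), which loads the replicative helicase onto origins, was at 406, 559 and 552 CPM untreated and at 9.52, 8.27 and 8.72 CPM treated (log2 fold change -5.84 ± 0.16). E2F2, an activator of S-phase genes, dropped from 111, 132 and 124 to 3.05, 3.95 and 3.37 CPM (-5.14 ± 0.13). Also among the 15 were TK1 (-4.64 ± 0.13) and TYMS (-3.73 ± 0.10), which make thymidine nucleotides, and CDC45 (-4.51 ± 0.15), ORC1 (-4.02 ± 0.11), CDC6 (-3.58 ± 0.16) and GINS2 (-3.50 ± 0.11) of origin licensing and firing. DTL (-3.81 ± 0.13), a ubiquitin ligase adaptor, PCLAF (-3.70 ± 0.12), a PCNA clamp partner, ASF1B (-3.59 ± 0.12), a histone chaperone, RAD54L (-3.76 ± 0.12) and MND1 (-3.54 ± 0.17) of homologous recombination, and PKMYT1 (-3.78 ± 0.15), a kinase that restrains CDK1, also belong to them. KIF21B, a kinesin that slows microtubule growth, was at 37.6, 49.5 and 43.0 CPM untreated and 1.66, 2.43 and 2.09 CPM treated (-4.39 ± 0.18). In OCI-LY3 its log2 fold change was -0.14, and the difference between the lines was -4.25 ± 0.22 (edgeR quasi-likelihood test, adjusted p = 2.03e-08), where 36.9% of all genes tested had a called difference and 7.79% were also called in opposite directions in the lines. Dose and time may differ between the lines. CHAF1B followed the 15 at -3.48. PKMYT1, RAD54L, TYMS, PCLAF, GINS2 and CHAF1B share exon sequence with another gene.

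Promoter windows of 3 of these genes and of 3 chaperone genes that rose are shown, because letters recognised by E2F factors and by heat shock factor can be read in them. They come from RefSeq (GRCh38.p14), run 5′ to 3′ on the gene's strand and reach 40 bases to either side of the match (in DNAJA1, 14 bases after it), with the match in capitals: TTTGGCG, or in the chaperone genes a heat shock element, here TTC, GAA and TTC with any 2 bases between them, or the same on the other strand.
CDT1, chr16:88803722-88803808, plus strand: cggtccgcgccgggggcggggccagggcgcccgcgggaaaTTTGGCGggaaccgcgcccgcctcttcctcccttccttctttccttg
E2F2, chr1:23531229-23531315, minus strand: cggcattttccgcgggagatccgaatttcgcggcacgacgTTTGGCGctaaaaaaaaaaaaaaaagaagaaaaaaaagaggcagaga
CDC45, chr22:19479855-19479941, plus strand: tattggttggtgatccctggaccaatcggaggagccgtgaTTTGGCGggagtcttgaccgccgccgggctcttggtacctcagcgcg
HSPA8, chr11:123062139-123062231, minus strand: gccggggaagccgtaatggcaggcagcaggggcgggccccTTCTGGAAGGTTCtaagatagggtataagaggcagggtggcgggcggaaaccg
HSP90AA1, chr14:102087080-102087172, minus strand: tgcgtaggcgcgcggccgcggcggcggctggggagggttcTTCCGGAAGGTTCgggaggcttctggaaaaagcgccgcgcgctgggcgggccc
DNAJA1, chr9:33025236-33025302, plus strand: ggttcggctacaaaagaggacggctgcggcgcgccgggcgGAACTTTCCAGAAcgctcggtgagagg

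HSPA8 holds 2 matches in its window, of which 1 is shown, and of the 2 RefSeq windows of HSP90AA1 the other holds 0. Relative to the RefSeq start of the window shown, the capitals lie from base -27 to -21 in CDT1, from -42 to -36 in E2F2, from -25 to -19 in CDC45, from -55 to -43 in HSPA8, from -88 to -76 in HSP90AA1 and from 4 to 16, just inside the transcript, in DNAJA1. Over windows from 250 bases before to 50 after each start, searched on both strands, TTTGGCG was in 6.32% of 917 protein-coding genes called at least 2-fold lower, in 3.91% of 512 called at least 2-fold higher and in 3.77% of the 9986 tested genes with a window. A second E2F letter string, TTCCCGC, which can overlap the first, was in 19.1%, 9.18% and 12.7% of the same sets. The heat shock element was in 0.545% of the lower (5 genes), 0.977% of the higher (5 genes) and 0.491% of the tested genes (49 genes). These are few genes, and HSPA8, which rose by less than 2-fold, is not in the higher set. CCAAT was in 49.1%, 37.5% and 43% of the lower, higher and tested genes. The other letters searched also differed between the lower, higher and tested genes. TTTGAA was in 17.7%, 15% and 13.7%, CACGTG in 8.94%, 14.5% and 12.9%, and TGACGTCA in 3.05%, 2.34% and 3.65%. Over all 27305 genes with a window the shares were 2.32% for TTTGGCG, 7.82% for TTCCCGC, 0.608% for the heat shock element and 39.7% for CCAAT. They were 18.2% for TTTGAA, 8.77% for CACGTG and 2.25% for TGACGTCA. These are matches of letters, not measured sites, and GC content, which moves with the calls, was not accounted for.

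The 10 largest gains in CPM were those of HSP90AB1, APOD and 8 further genes. HSP90AA1, the inducible HSP90, was at 335, 264 and 293 CPM untreated and at 1004, 946 and 812 CPM treated (log2 fold change 1.63 ± 0.11), and its constitutive partner HSP90AB1, the largest gain in CPM, rose from 3486 ± 130 to 4439 ± 252 CPM (0.35 ± 0.08, or 0.61 with total counts). DNAJA1, a co-chaperone of HSP70, rose by 1.84 ± 0.11 and HSPA8, the constitutive HSP70, by 0.81 ± 0.12. ODC1, the rate-limiting enzyme of polyamine synthesis, went from 448, 418 and 440 to 1095, 933 and 991 CPM (1.21 ± 0.09). FTL, the ferritin light chain that stores iron, rose by 0.95 ± 0.13, the translation factor EIF4G2 by 0.95 ± 0.11, the nucleolar protein NCL by 0.78 ± 0.09, LDHA of lactate production by 0.76 ± 0.19 and the splicing scaffold SRRM2 by 0.75 ± 0.11. Together the 10 largest gains took 0.808 to 0.863% of untreated and 1.66 to 1.75% of treated counts. HSP90AA1, EIF4G2 and SRRM2 share exon sequence with another gene.

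**Figure D3:**
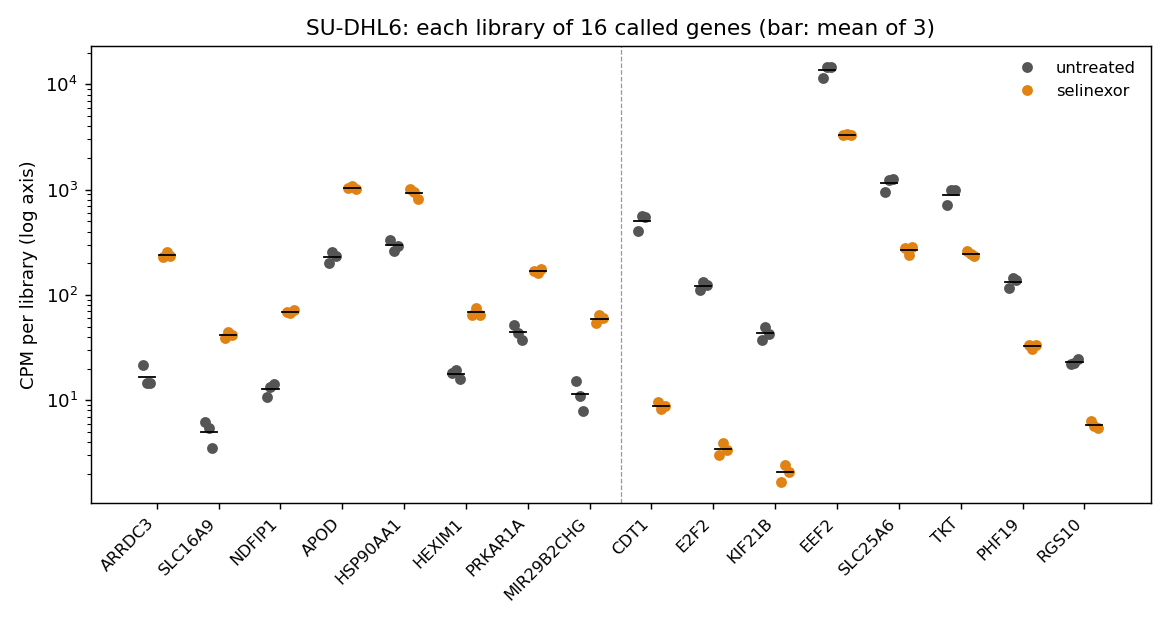
Each point is the CPM (log axis) of 1 SU-DHL6 library, grey for untreated and orange for selinexor, with the mean of 3 as a bar, for genes that rose (left of the dashed line) and fell (right). In none of these genes do the groups overlap, and in CDT1 the untreated libraries lie between 406 and 559 CPM and the treated ones between 8.27 and 9.52 CPM.

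The losses in abundance were led by the translation elongation factor EEF2, which moves the ribosome along the mRNA. EEF2 (ENSG00000167658, chromosome 19, 3976056 to 3985469) fell from 11530, 14724 and 14597 to 3305, 3354 and 3293 CPM (log2 fold change -2.04 ± 0.12), so that its share of all counts went from 1.2 to 1.44% down to 0.385 to 0.405%. The other 9 of the 10 largest losses were the ribosomal protein genes RPL3 (-1.78 ± 0.12), RPS9 (-1.39 ± 0.13), RPL13A (-1.26 ± 0.13), RPL4 (-1.21 ± 0.16), RPS18 (-0.97 ± 0.11) and RPLP0 (-0.97 ± 0.15), the tubulin gene TUBB (-1.52 ± 0.09), the glycolytic GAPDH (-1.20 ± 0.13) and the elongation factor EEF1A1 (-0.93 ± 0.09). These 10 genes held 5.28 to 5.66% of untreated and 2.49 to 2.76% of treated counts. RPL13A, RPL4, RPS18, TUBB and GAPDH share exon sequence with another gene. Most of the 10 have processed pseudogenes, and reads shared with these are handled in an unstated way.

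mRNAs that begin with a terminal oligopyrimidine tract (TOP mRNAs) encode ribosomal proteins and a set of other translation factors whose synthesis is tied to mTOR. Leaving out ribosomal proteins, 20 of 25 tested TOP mRNA genes fell and 2 rose, with a median log2 fold change of -0.72 (17 and 4 and a median of -0.45 with total counts, and 21 and 2 with the offsets). This list was assembled after some of its values were seen. Beside EEF2 and EEF1A1, the elongation factor subunits EEF1B2 (-1.30 ± 0.11) and EEF1G (-1.39 ± 0.33), the ribosomal scaffold RACK1 (-1.32 ± 0.09) and the initiation factor subunit EIF3L (-1.43 ± 0.13) fell. EIF4B went from 1082, 940 and 977 to 624, 545 and 604 CPM (-0.76 ± 0.10), the poly(A)-binding protein PABPC1 from 1698 ± 235 to 1107 ± 45.7 CPM (-0.62 ± 0.11) and TPT1 from 1506 ± 74.2 to 898 ± 55.6 CPM (-0.75 ± 0.09), values that total counts bring to -0.50, -0.35 and -0.48. The exceptions were EIF3A (0.50 ± 0.11, or 0.76 with total counts) and EIF4A2 (0.58 ± 0.11, or 0.33 with the offsets), which rose. NPM1, a nucleolar chaperone, was at 648, 512 and 615 CPM untreated and 702, 674 and 610 CPM treated, groups that overlapped, and was not called with TMM scaling (0.16 ± 0.10) but was with total counts (0.42). EEF1B2, EEF1G, RACK1, EIF3L, EIF4B, TPT1, EIF3A and EIF4A2 share exon sequence with another gene.

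Among genes of B-cell identity, more fell than rose with TMM scaling. Of 22 tested B-cell transcription factor genes, 11 fell and 1 rose, with a median of -0.28 (6 and 5 and a median of -0.01 with total counts, 12 and 2 with the offsets), and of 15 germinal centre B-cell markers 6 fell and 2 rose (5 and 3 with total counts, 7 and 0 with the offsets). MYB, which marks immature and cycling haematopoietic cells, was at 9.29, 7.02 and 8.52 CPM untreated and 0.831, 1.46 and 0.856 CPM treated (-2.97 ± 0.32). BACH2, a repressor of plasma cell differentiation, went from 195, 174 and 151 to 74.8, 91.1 and 81.8 CPM (-1.07 ± 0.12), MEF2B, a germinal centre factor, from 417, 366 and 401 to 182, 181 and 204 CPM (-1.06 ± 0.12) and TCF3, the E protein of early B-cell fate, from 423, 520 and 541 to 227, 226 and 262 CPM (-1.05 ± 0.12). SPIB, an ETS factor of B cells, fell by 1.11 on the log2 scale, and MYBL1, a germinal centre relative of MYB, by 1.37. In each of these 6 genes no treated library reached an untreated one. PAX5, the commitment factor of the B lineage, at 342 ± 29.9 and 380 ± 35.0 CPM, and BCL6, at 252 ± 10.6 and 230 ± 17.6 CPM, overlapped between the groups and were not called. RUNX1 was the riser (0.55 ± 0.09, 0.26 with the offsets). MEF2B and SPIB, and also PAX5, share exon sequence with another gene.

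Of the 10 B-cell markers, 7 fell and 1 rose (4 and 2 with total counts, 5 and 2 with the offsets). BLK, a Src-family kinase, fell from 346 ± 36.3 to 211 ± 9.40 CPM (-0.71 ± 0.10), the tetraspanin CD37 from 561 ± 76.0 to 363 ± 6.05 CPM (-0.63 ± 0.10) and CD79B, a signalling chain of the B-cell receptor, from 615 ± 61.4 to 411 ± 49.8 CPM (-0.58 ± 0.10). With the offsets the changes of BLK, CD37 and CD79B were -0.45, -0.34 and -0.29, and with total counts -0.44, -0.36 and -0.32. CD37 shares exon sequence with another gene. MS4A1, which encodes CD20, was the member that rose, from 456, 321 and 354 to 504, 546 and 510 CPM (0.46 ± 0.12, 0.23 with the offsets and 0.72 with total counts). The CD79B change differed from that of OCI-LY3, where its log2 fold change was 1.74, by -2.32 ± 0.15 (edgeR quasi-likelihood test, adjusted p = 1.29e-07). Of the 8 plasma cell markers, 5 fell and 2 rose (3 and 2 with total counts). Their summed level, scaled by total counts without TMM factors, was 437 to 491 CPM untreated and 536 to 590 CPM treated. The sum was not computed with TMM factors, which were higher in treated libraries. XBP1, the secretory factor, fell by 1.56 on the log2 scale, and MZB1, an endoplasmic reticulum co-chaperone, rose by 1.07 ± 0.15.

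Heterotrimeric G proteins carry signals from chemokine and lipid receptors that position B cells, and RGS proteins end these signals. Of 36 tested G protein subunit and RGS genes, 14 fell and 9 rose, with a median of -0.48 (10 and 11 and a median of -0.22 with total counts). GNAZ, an inhibitory alpha subunit, fell from 30.1, 33.4 and 34.8 to 7.97, 6.49 and 7.91 CPM (-2.13 ± 0.11) and RGS10 from 22.1, 22.4 and 24.8 to 6.37, 5.73 and 5.4 CPM (-1.99 ± 0.11). The abundant GNAI2 (398 ± 44.5 to 228 ± 18.3 CPM, -0.81 ± 0.11, or -0.54 with total counts) and GNB5 (-0.92 ± 0.10) also fell. Against these, GNG2, a gamma subunit, rose from 16 ± 1.77 to 60.3 ± 18.8 CPM (1.91 ± 0.28) and RGS14 by 0.87 ± 0.12. Both GNAZ and RGS10 differed from OCI-LY3, where their log2 fold changes were 0.52 and 0.02, by -2.66 ± 0.15 and -2.0 ± 0.14 (edgeR quasi-likelihood test, adjusted p = 5.8e-08 and 2.88e-07). GNAZ shares exon sequence with another gene.

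Protein kinase A is held inactive by regulatory subunits and placed in the cell by A-kinase anchoring proteins. Of 42 tested genes of cAMP and cGMP signalling, 11 rose (26.2%) and 12 fell (28.6%), beside 20.4% and 22.8% of all genes tested. With total counts 17 rose and 7 fell. The regulatory subunits PRKAR1A and PRKAR2B moved in opposite directions. PRKAR1A rose from 51.4, 43.3 and 37.7 to 170, 160 and 175 CPM (1.93 ± 0.46), and PRKAR2B fell from 18.0, 18.5 and 18.6 to 1.27, 2.70 and 1.87 CPM (-3.23 ± 0.17). Per gene length, in the authors' deposited FPKM (fragments per kilobase of gene, scaled to library size), PRKAR2B stood above PRKAR1A in untreated cells (4.09 ± 0.0822 against 2.32 ± 0.443) and below it in treated cells (0.523 ± 0.196 against 10.6 ± 0.662, SD, n = 3). In CPM, PRKAR1A stood above PRKAR2B in both groups. The order in untreated FPKM therefore rests on the gene lengths used for the FPKM, which were not examined. AKAP9 and AKAP11 (1.44 ± 0.19) rose, while ADCY1, an adenylyl cyclase (-2.03 ± 0.19), and PDE7A, a cAMP phosphodiesterase (-1.26 ± 0.13), fell. PRKAR1A and PDE7A share exon sequence with another gene.

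Genes of the mTOR and energy-sensing network moved in both directions. Of 38, 13 fell (34.2%) and 11 rose (28.9%), beside 22.8% and 20.4% of all genes tested. With total counts 8 fell and 17 rose, and with the offsets 12 and 12. EIF4EBP1, the mTOR target that blocks cap-dependent translation, fell from 172, 236 and 236 to 72.8, 60.5 and 58.0 CPM (-1.75 ± 0.14), and DDIT4, a stress-induced inhibitor of mTOR complex 1, from 188, 211 and 207 to 101, 84.6 and 106 CPM (-1.06 ± 0.10). TSC1, a brake on the pathway, rose from 31.5 ± 5.56 to 61.3 ± 7.56 CPM (0.96 ± 0.13), as did RPS6KB1, the S6 kinase (0.91 ± 0.14), and RRAGC, a Rag GTPase that senses amino acids (0.79 ± 0.10). SLC7A5, which carries leucine into the cell, fell from 680, 936 and 919 to 208, 223 and 221 CPM (-1.96 ± 0.14).

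The pentose phosphate pathway makes NADPH and the ribose of nucleotides, and 7 of its 10 tested genes fell while none rose (7 and 1 with total counts, 6 and 1 with the offsets). TKT, the transketolase of its reversible arm, went from 720, 988 and 982 to 259, 243 and 236 CPM (-1.87 ± 0.12) and PGD, which makes NADPH, from 312, 366 and 359 to 148, 115 and 129 CPM (-1.40 ± 0.11). PRPS2, which activates ribose for nucleotide synthesis, fell by 1.23 on the log2 scale and TALDO1, the transaldolase, by 0.67 (-0.40 with total counts and -0.38 with the offsets).

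Carriers of the inner mitochondrial membrane fell more often than they rose: 23 of 50 were lower and 6 higher, with a median of -0.34 (18 and 13 and a median of -0.08 with total counts, 20 and 10 with the offsets). The ADP/ATP translocases, which exchange mitochondrial ATP for cytosolic ADP, differed among themselves. SLC25A6 went from 945, 1239 and 1254 to 278, 241 and 283 CPM (-2.10 ± 0.12) and SLC25A5 from 868, 998 and 986 to 292, 235 and 242 CPM (-1.89 ± 0.14), whereas SLC25A4, the form of heart and muscle, was at 66.6, 76.5 and 77.5 and at 73.9, 68.3 and 70.5 CPM (-0.05 ± 0.10, not called). In FPKM, SLC25A5 and SLC25A6 stood at 405 ± 17.5 and 401 ± 48.2 in untreated cells and at 131 ± 13.1 and 113 ± 10.6 in treated cells, and SLC25A4 at 13 ± 0.63 and 15.1 ± 0.493. FPKM carry no TMM factors, which were higher in treated libraries, so their changes with treatment are not on the scale of the CPM. SLC25A10, a dicarboxylate carrier, fell by 1.52 on the log2 scale and SLC25A3, the phosphate carrier, by 0.80 (-0.53 with total counts). SLC25A5 has many pseudogenes and shares exon sequence with another gene.

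Haem and iron-sulfur synthesis followed the same direction, with 12 of 30 genes lower and 3 higher (7 and 9 with total counts, 11 and 4 with the offsets). CPOX (-0.96 ± 0.17) and FECH (-0.87 ± 0.15) act along the haem pathway, FDXR (-1.06 ± 0.16) passes electrons for iron-sulfur assembly and MMS19 (-0.93 ± 0.09) delivers the clusters. The scaffold on which they form, ISCU, rose from 45.6 ± 4.97 to 70.2 ± 7.06 CPM (0.62 ± 0.11). Of 15 polyamine genes, 7 fell and 2 rose: against the rise of ODC1, SMS, the spermine synthase, fell from 58.1 ± 4.42 to 28.6 ± 0.0479 CPM (-1.02 ± 0.10), and AZIN1, which protects ODC1 protein from its antizyme, from 380, 356 and 339 to 222, 238 and 232 CPM (-0.64 ± 0.08, or -0.37 with total counts). In phospholipid synthesis, 14 of 41 genes fell and 5 rose (9 and 9 with total counts), with PTDSS1, which makes phosphatidylserine, falling from 323, 363 and 371 to 126, 152 and 112 CPM (-1.44 ± 0.14). AZIN1 shares exon sequence with another gene.

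**Figure D4:**
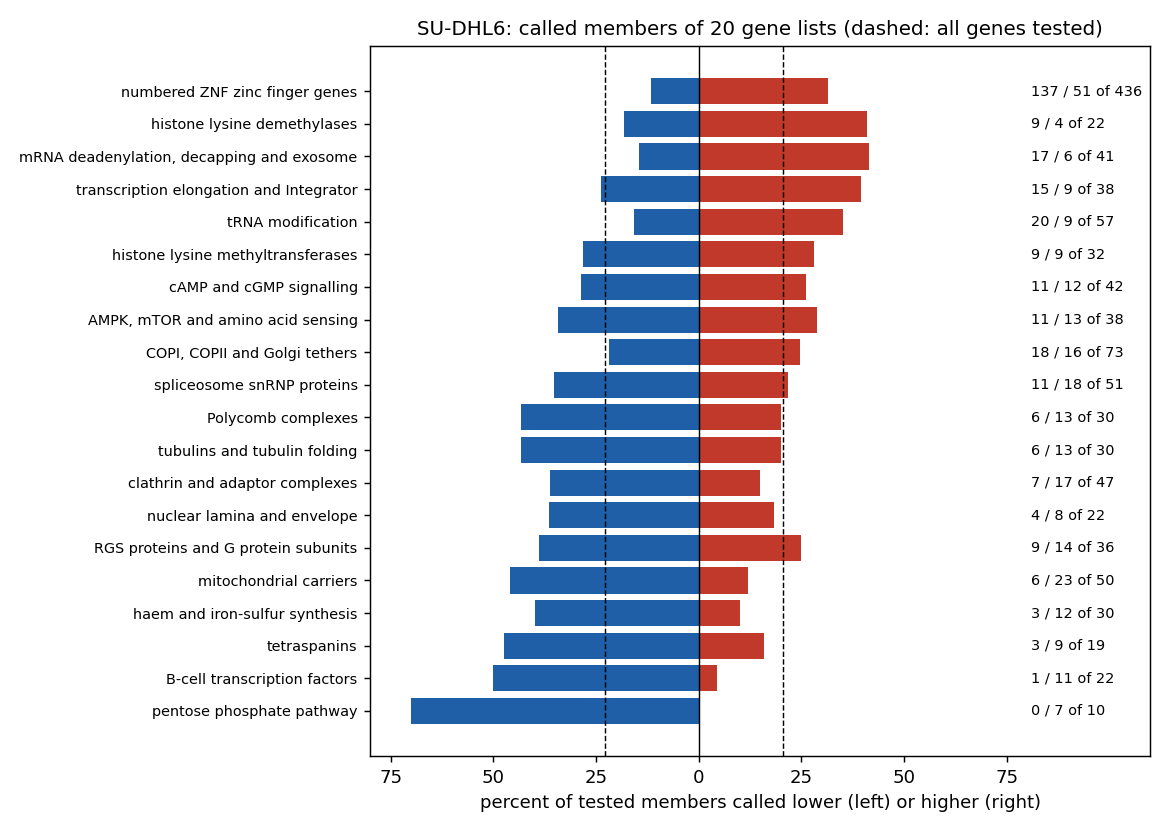
Bars give the percent of the tested members of 20 gene lists called lower (blue, to the left) or higher (red, to the right) in SU-DHL6, with the counts higher and lower of the tested members at the right edge, and dashed lines mark the shares over all genes tested (22.8% lower, 20.4% higher). Of the 20 lists plotted, the pentose phosphate list, with 7 of 10 lower, lies farthest to the left.

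The most abundant tubulin genes fell. TUBB, the main beta-tubulin gene, was at 3860, 4373 and 4447 CPM untreated and 1610, 1401 and 1398 CPM treated, which in FPKM, without TMM factors, was 1024 ± 42.8 and 428 ± 25.5. TUBB2A (-2.14 ± 0.12) and the alpha-tubulin gene TUBA1B (-1.68 ± 0.11) fell with it, and in all 13 of 30 tubulin and tubulin-folding genes fell and 6 rose (11 and 11 with total counts). TUBB and TUBA1B share exon sequence with another gene, and tubulin genes are near-identical over long stretches, so the split of reads between them is uncertain.

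Several genes that build and contract actin changed. DIAPH3, a formin (-2.39 ± 0.20), CIT, a kinase of the cytokinetic ring (-1.73 ± 0.15), RAC3 (-1.63 ± 0.20) and LIMK2, which inactivates cofilin (-1.42 ± 0.20), led the falls. The abundant RHOA, at 777, 810 and 867 and then 490, 467 and 463 CPM (-0.79 ± 0.09), and RAC1, at 387, 376 and 416 and then 252, 214 and 222 CPM (-0.78 ± 0.09), changed by less, and by -0.52 and -0.51 with total counts. The kinases that RHOA activates went the other way: ROCK1 rose from 69.6, 49.2 and 56.3 to 137, 191 and 156 CPM (1.47 ± 0.16) and ROCK2 from 19, 12.5 and 14.7 to 30.8, 41.6 and 34.8 CPM (1.22 ± 0.16). Their log2 fold changes in OCI-LY3 were -0.11 and -0.39, and the differences of 1.57 ± 0.23 and 1.61 ± 0.22 were called (edgeR quasi-likelihood test, adjusted p = 0.000121 and 8.86e-05). RHOA shares exon sequence with another gene.

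The nuclear lamina lies under the inner nuclear membrane, and 8 of 22 of its genes fell and 4 rose (7 and 5 with total counts, 10 and 5 with the offsets). LMNB1 went from 195, 159 and 192 to 73.5, 80.5 and 84.6 CPM (-1.20 ± 0.13), and LMNB2 (-0.90 ± 0.11) and TMPO (-1.29 ± 0.15), a lamin-binding protein, fell with it. SYNE2, a giant nesprin that ties the nucleus to actin, rose from 219 ± 47.7 to 404 ± 91.0 CPM (0.89 ± 0.16), but by 0.41 with the offsets. At the Golgi, some coiled-coil tethers rose: GOLGB1 from 37.3, 21.6 and 20.7 to 65.3, 98.0 and 83.6 CPM (1.63 ± 0.21), GOLGA4 by 1.60 ± 0.24 and USO1 by 1.24 ± 0.15. In their list of 73 COPI, COPII and Golgi genes, 18 rose and 16 fell, near the shares over all genes, and 33 and 6 with total counts. The golgin genes GOLGA1 (0.29 ± 0.13) and GOLGA2 (0.18 ± 0.12) were not called with TMM scaling but were with total counts (0.55 and 0.45). LMNB2, TMPO, GOLGA1 and GOLGA4 share exon sequence with another gene.

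At the cell surface, 9 of 19 tetraspanin genes fell and 3 rose (7 and 4 with total counts, 8 and 3 with the offsets). TSPAN33 dropped from 99.0, 132 and 130 to 43.6, 42.3 and 46.7 CPM (-1.45 ± 0.12), CD82 from 18.5 ± 3.35 to 8.48 ± 0.719 CPM (-1.12 ± 0.14) and CD81 from 490 ± 68.0 to 323 ± 28.6 CPM (-0.60 ± 0.13), or -0.33 with total counts and -0.38 with the offsets. Among 47 genes of clathrin coats and their adaptors, which bring surface receptors inside, 17 fell and 7 rose (10 and 12 with total counts), AP1M1 by 0.96 on the log2 scale among them. CD81 shares exon sequence with another gene.

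Chromatin regulators moved in both directions, and within several families some members fell while their relatives rose. Of 30 Polycomb genes, 13 fell and 6 rose (6 and 9 with total counts, 13 and 6 with the offsets). EZH2, the main methyltransferase of Polycomb complex 2, went from 124, 108 and 104 to 46.4, 51.6 and 49.1 CPM (-1.19 ± 0.11), its partner PHF19 from 116, 144 and 140 to 33.4, 30.6 and 33.4 CPM (-2.04 ± 0.10) and CBX2, a reader in complex 1, from 68.3, 79.3 and 75.8 to 18.8, 19.1 and 19.2 CPM (-1.97 ± 0.11). EZH1, the form of resting cells, rose from 39.6 ± 2.97 to 60.4 ± 4.08 CPM (0.61 ± 0.10) and RYBP, a subunit of variant complex 1, from 20.9, 22.4 and 21.6 to 42.1, 48.4 and 43.7 CPM (1.05 ± 0.10). In FPKM, without TMM factors, EZH2 stood at 14.1 ± 1.84 and EZH1 at 3.47 ± 0.383 in untreated cells, and they came to 7.39 ± 0.518 and 6.35 ± 0.593 in treated cells. SUZ12, the core subunit shared by both enzymes, overlapped between the groups and was not called (-0.22 ± 0.12), but with the offsets it was (-0.51).

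Histone lysine methyltransferases were called in equal numbers each way, 9 higher and 9 lower of 32 (13 and 2 with total counts). SUV39H1, which methylates heterochromatin, fell from 50.9, 52.1 and 48.3 to 11.7, 13 and 14 CPM (-1.97 ± 0.21) and NSD2 from 147, 163 and 165 to 37.4, 47.2 and 52.0 CPM (-1.80 ± 0.26). KMT2E rose from 76.0, 65.6 and 64.0 to 154, 196 and 184 CPM (1.38 ± 0.11), KMT5B by 1.22 ± 0.21, ASH1L by 1.21 ± 0.14 and KMT2C, an enhancer methyltransferase often mutated in cancer, by 1.05 ± 0.12 (0.67 with the offsets). Of 16 acetyltransferase and bromodomain genes, 5 rose and 5 fell (8 and 3 with total counts). The risers included EP300, from 133, 165 and 150 to 213, 264 and 260 CPM (0.72 ± 0.13), its paralogue CREBBP (0.70 ± 0.18) and KAT6B (1.17 ± 0.14, 0.72 with the offsets). Demethylases rose in 9 of 22 and fell in 4 (14 and 2 with total counts, 11 and 4 with the offsets). KDM7A rose by 1.29 ± 0.18 and PHF2 fell by 1.22 on the log2 scale. KMT2E and ASH1L share exon sequence with another gene.

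Heterochromatin genes were likewise divided. UHRF1, which brings DNA methyltransferase to new DNA, fell from 63.4, 74.8 and 74.3 to 9.91, 9.08 and 10.9 CPM (-2.83 ± 0.14) and CBX5, the HP1 alpha protein, from 288, 262 and 251 to 108, 121 and 117 CPM (-1.21 ± 0.09). ATRX, a remodeller that deposits histone H3.3 there, rose from 44.2, 26.3 and 28.4 to 75.9, 103 and 70.9 CPM (1.34 ± 0.19, 0.85 with the offsets), and MPHOSPH8 of the HUSH silencing complex by 1.31 ± 0.23. In all, 7 of 17 genes of this list fell and 6 rose (4 and 8 with total counts, 5 and 4 with the offsets).

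**Figure D5:**
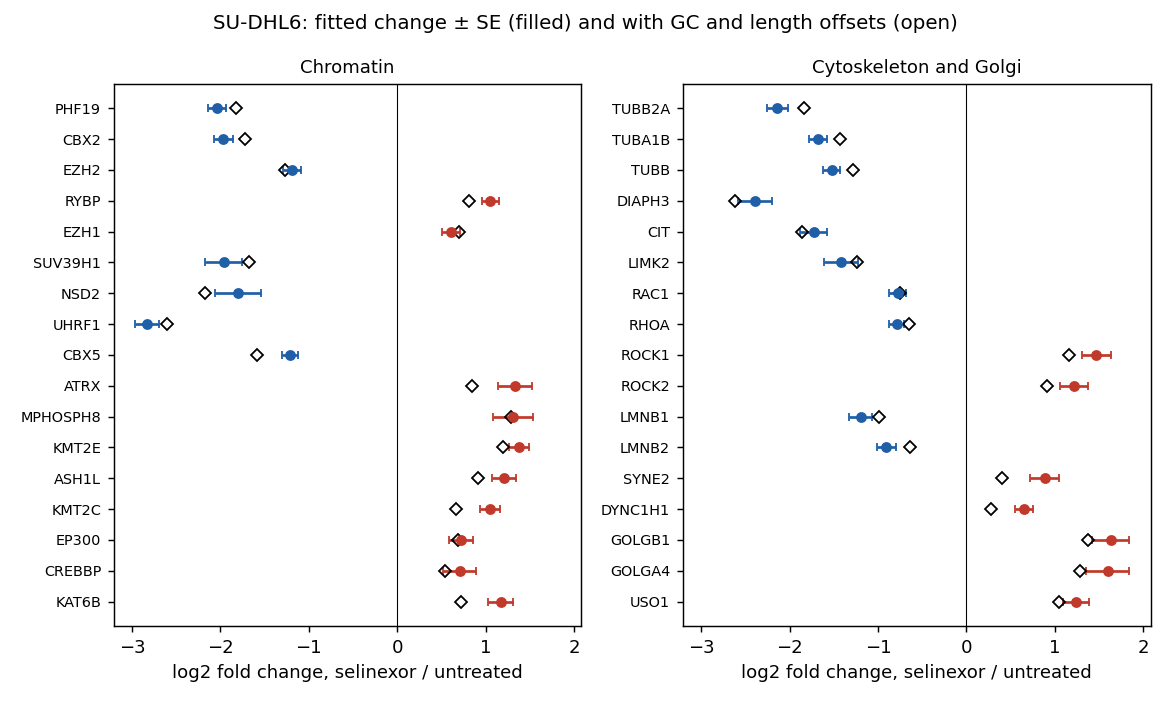
Filled points give the fitted log2 fold change ± SE of selinexor against untreated SU-DHL6 for chromatin genes (left) and cytoskeletal, lamina and Golgi genes (right), red above and blue below 0, and open diamonds the same with GC and length offsets. No gene changes sign with the offsets, and those of SYNE2 and DYNC1H1 shrink most among the risers shown on the right.

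P-TEFb, the kinase that releases paused RNA polymerase II, is held inactive by HEXIM1 on the 7SK RNA. HEXIM1 rose from 18.0, 19.5 and 15.9 to 64.5, 75.6 and 65.1 CPM (1.94 ± 0.12), the largest change of a list of elongation and Integrator genes in which 15 of 38 rose and 9 fell (21 and 3 with total counts, 14 and 8 with the offsets). In OCI-LY3 its log2 fold change was 0.23, and the difference of 1.71 ± 0.16 was called (edgeR quasi-likelihood test, adjusted p = 3.53e-06). INTS13, an Integrator subunit (1.02 ± 0.13), and CTR9 of the PAF complex of elongation (1.29 ± 0.10) rose, and SSRP1 of the FACT histone chaperone (-0.88 ± 0.08) and NELFB of the pausing factor NELF (-0.90 ± 0.14, or -0.57 with the offsets) fell. CTR9 shares exon sequence with the neighbouring EIF4G2, which rose too.

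Spliceosomal proteins fell in 18 of 51 and rose in 11 (13 and 20 with total counts, 16 and 16 with the offsets), so the direction of this list turns with the scaling. The small core proteins SNRPB, from 463, 616 and 598 to 251, 204 and 219 CPM (-1.31 ± 0.12), and LSM4 (-1.32 ± 0.31) fell. SF3B1, the branch-site factor, rose from 404, 264 and 282 to 541, 593 and 578 CPM (0.85 ± 0.14). In mRNA export, which runs through NXF1 rather than XPO1 for most messages, NXF1 rose from 51.2, 56.1 and 61.2 to 117, 129 and 107 CPM (1.06 ± 0.11), while DDX39A, a helicase of the TREX complex, fell from 270, 327 and 327 to 103, 106 and 92.3 CPM (-1.62 ± 0.10) and its partner ALYREF by 1.08 on the log2 scale. Of 24 export genes, 9 fell and 4 rose (8 and 10 with total counts). ALYREF shares exon sequence with another gene.

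Genes that remove mRNAs rose more often than they fell. Of 41 deadenylation, decapping and exosome genes, 17 rose and 6 fell, with a median of 0.16 (22 and 3 and a median of 0.43 with total counts, 16 and 9 with the offsets). ZFP36L2, which recruits deadenylases to AU-rich messages, rose from 91.0, 107 and 112 to 254, 261 and 282 CPM (1.36 ± 0.10), and BTG2, an antiproliferative deadenylation factor, from 604, 638 and 648 to 961, 968 and 932 CPM (0.60 ± 0.08). Enzymes that modify tRNA rose in 20 of 57 and fell in 9, with a median of 0.14 (29 and 2 with total counts, 25 and 5 with the offsets). TRMT10C, which methylates mitochondrial tRNA, rose from 18.0, 14.5 and 16.3 to 48.4, 49.9 and 38.3 CPM (1.49 ± 0.13) and PUS7, a pseudouridine synthase, by 0.92 ± 0.14, while ELP6 of the Elongator complex fell by 1.28 on the log2 scale. ZC3H13, a subunit that keeps the m6A methyltransferase in the nucleus, rose from 43.1, 32.4 and 32.7 to 97.5, 121 and 104 CPM (1.58 ± 0.13), and OGA, which removes GlcNAc from nuclear and cytosolic proteins, from 137, 102 and 117 to 285, 332 and 323 CPM (1.40 ± 0.12).

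Numbered ZNF genes, which mostly encode KRAB-type repressors of repeats and genes, rose in 137 of 436 and fell in 51, with a median of 0.31 (196 and 28 and a median of 0.57 with total counts, 127 and 47 and a median of 0.24 with the offsets). On chromosome 19, where many such genes are clustered, 29.9% of 214 rose and 8.88% fell, beside 32.9% and 14.4% of the 222 elsewhere. Between 11 and 13 Mb on chromosome 19, an interval chosen after its values were seen, 12 of 24 ZNF genes rose and 2 fell, with a median of 1.14 (1.06 with the offsets). Of the 41 other protein-coding genes there, 4 rose and 17 fell with TMM scaling, but 10 and 12 with the offsets and 7 and 13 with total counts. Their median was -0.18, or 0.14 with the offsets and 0.09 with total counts. ZNF442 went from 1.28 ± 0.129 to 11.5 ± 1.5 CPM (3.16 ± 0.35) and ZNF700 from 9.42 ± 1.72 to 25.5 ± 1.46 CPM (1.43 ± 0.14). ZNF799 and ZNF791 overlapped between the groups and were not called. ZNF genes are low in abundance, similar in sequence and, in ZNF700, share exons with a neighbour, so reads may be split between them.

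Long noncoding RNAs rose more often than they fell: 22.6% of 2056 were higher and 8.37% lower, with a median of 0.32 (0.58 with total counts, 0.43 with the offsets), and their share of all counts went from 0.956 to 1.14% to 1.25 to 1.37%. Counts on pseudogenes moved the other way, from 7.69 to 8.41% to 5.13 to 6.05%. Among those that met the naming criteria the largest rises included ADIRF-AS1 (2.63 ± 0.19), DNAJC3-DT (2.39 ± 0.22) and MIR29B2CHG (2.38 ± 0.19), and OLMALINC, from 38.0, 42.4 and 41.5 to 9.97, 10.8 and 9.89 CPM (-1.99 ± 0.13), and TMPO-AS1 (-1.95 ± 0.13) were among those that fell most. ADIRF-AS1 and TMPO-AS1 overlap genes on the other strand, and the strand setting of the counting is not stated.

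MIR29B2CHG is the host transcript of the miRNAs miR-29b and miR-29c on chromosome 1, a family lost in several B-cell lymphomas. It was at 15.3, 10.9 and 7.95 CPM untreated and at 54.3, 63.9 and 60.4 CPM treated. In OCI-LY3 its log2 fold change was 0.05, and the difference of 2.33 ± 0.25 was called (edgeR quasi-likelihood test, adjusted p = 1.03e-05). The mature sequences it can give rise to, from RefSeq (GRCh38.p14), share their seed, bases 2 to 8, in capitals.
miR-29b-3p, chr1:207802450-207802472, minus strand: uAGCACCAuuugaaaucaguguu
miR-29c-3p, chr1:207801865-207801886, minus strand: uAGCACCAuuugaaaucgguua

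The values are those of the host transcript, and the level of the mature miRNAs was not analysed here. Of 20 tested miRNA host genes, a list assembled after values were seen, 8 rose and 2 fell, the same numbers with total counts and with the offsets. MIR17HG, host of the proliferative miR-17-92 cluster, rose from 0.814, 0.932 and 0.433 to 5.04, 5.62 and 4.76 CPM (2.79 ± 0.34). MIR3142HG, host of miR-146a (1.35 ± 0.16), DLEU2, host of miR-15a and miR-16-1 (0.97 ± 0.13, sharing exon sequence with TRIM13), and MIR155HG (0.60 ± 0.14) rose as well. MIR497HG was at 6.58, 9.01 and 9.97 CPM untreated and 0.498, 0.432 and 0.749 CPM treated (-3.91 ± 1.10), and its call was lost when any 1 of the treated libraries was left out (log2 fold changes of -3.75 to -4.17). It shares exon sequence with another gene.

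Among abundant genes, some did not move. SNRNP200, a spliceosomal helicase, was at 645, 654 and 646 CPM untreated and 619, 663 and 674 CPM treated. Its log2 fold change was 0.01 with a 95% interval from -0.17 to 0.18. LAPTM5, a lysosomal protein of blood cells (-0.03 ± 0.09), the mitochondrially encoded MT-CO1 (-0.02 ± 0.09) and MAP4K4 (0.04 ± 0.08) were alike. With total counts all 4 were called higher, at 0.27, 0.24, 0.25 and 0.31, close to the shift of the median gene.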

How the data were processed

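RNA sequencing libraries of SU-DHL6 cells, 3 untreated and 3 treated with selinexor, were analysed from a gene table of 58302 genes. Per the file headers, the authors deposited raw counts and FPKM per gene and library; aligner, counter and strandedness: not given in the sources used here. A mouse genome build stands in the submitters' processing notes, whereas 58039 of the gene identifiers are those of human GENCODE release 29 and 97.5% of these have identical GRCh38 coordinates, so the human build was used. Groups came from the titles. Counts were fitted with edgeR 4.0.16 (R 4.3.3; quasi-likelihood test, robust, TMM, filter by group, 1 coefficient per group over all 12 libraries), adjusted over all 16474 genes tested. SE is the log2 fold change divided by the root of the F statistic. FPKM, which carry no TMM factors, were used for levels between genes. The gene lengths behind them were not examined. On simulated counts for 14425 genes, 63% of 2-fold and 94% of 4-fold changes were recovered. The simulation changed far fewer genes than were called in the data, so these shares do not carry over to them.

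Named genes were protein-coding, called, without overlap between groups, at 3 or more in mean log2 CPM and at most a 2-fold range within a group: the 15 largest rises and falls and the 10 largest gains and losses in CPM. Long noncoding RNAs needed 2 or more. In gene lists, members with the smallest adjusted p and those needed to account for a list were named, and the most abundant genes with an interval within 0.25 of 0 stand for steady genes. The members and lists were chosen with earlier results of these data known. Alternatives were total counts, DESeq2 1.42.0, limma 3.58.1 (voom), other filters, the 6 libraries alone, a replicate block, leaving out each library, and offsets for GC content and length added after seeing the data. A few items are not reported here.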

Additional observations from a re-analysis of the deposited data

Results flagged for a closer look

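Among the 49 genes with the largest changes in SU-DHL6, 44 had a called difference of the response between the lines (edgeR quasi-likelihood test), beside 36.9% of all genes tested, and 10 were also called in opposite directions in SU-DHL6 and OCI-LY3, beside 7.79% of all genes tested. The 49 were chosen for their changes in SU-DHL6, and the 10 are set out here for their opposite directions. Differences are SU-DHL6 minus OCI-LY3 on the log2 scale, and dose and time may differ between the lines. Translation genes that fell in SU-DHL6 rose in OCI-LY3: the difference was -1.51 for EEF1A1, -1.72 for RPL13A, -1.65 for RPL4, -1.39 for RPLP0, -1.69 for RPS18 and -1.76 for RPS9, with OCI-LY3 changes of 0.58, 0.46, 0.44, 0.42, 0.72 and 0.36. Chaperone, iron storage and nucleolar genes that rose in SU-DHL6 fell in OCI-LY3: the difference was 1.17 for HSPA8, 0.68 for HSP90AB1, 1.88 for FTL and 1.38 for NCL, with OCI-LY3 changes of -0.35, -0.33, -0.93 and -0.59. Treated libraries had higher TMM factors than untreated ones in SU-DHL6 (1.167 to 1.233 and 0.974 to 1.039) and lower ones in OCI-LY3 (0.865 to 0.887 and 0.945 to 0.962), and these differences were not computed with total counts. EEF1A1, RPL13A, RPL4, RPS18, RPS9 and RPLP0 have pseudogenes, and the part of shared reads in their values was not tested.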

How the results depend on the processing

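Scaling by total counts moved all 4 counts by over 1.5 times: 5451 genes were called higher, 2367 lower, 2190 at least 2-fold higher and 918 at least 2-fold lower, with 3365, 3758, 1184 and 1449 under TMM. Leaving out each library in turn gave 2698 to 3521 genes higher, 3079 to 3924 lower, 1029 to 1440 at least 2-fold higher and 1315 to 1596 at least 2-fold lower. The other alternatives (DESeq2, its size factors in edgeR, limma-voom, no filter, a filter at 1 CPM, the 6 libraries alone, the replicate block and the GC and length offsets) kept each count within 1.5 times. No effect shared by same-numbered libraries was seen: their deviations correlated at -0.12, -0.022 and 0.0501, and not every sample correlated best with its own number. These values cannot settle whether the cultures were paired, which is not stated. With the replicate block, 2964 genes were called higher, 3396 lower, 1125 at least 2-fold higher and 1427 at least 2-fold lower. Of 182 called genes named in the text, 181 kept their call under all alternatives run and none reversed. The exception was MIR497HG, lost without each treated library in turn. Most named genes were chosen for large changes or small adjusted p, so this says little about the other calls. The libraries held 14210200 to 16405842 counts. In a simulation at 3 per group, with far fewer changed genes than were called here, 63% of 2-fold changes were called. A gene that was not called may still differ.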
